A study of Mus musculus with 13 samples.

Results

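The 10 genes of the STAT3 cytokine axis described here were Il6, Lif, Osmr, Il6st, Stat3, Socs3, Serpina3n, Lcn2, Steap4 and Cd44. They were chosen by symbol from the 45777 genes with read counts in 13 hippocampal RNA-Seq libraries. No cutoff on their values was applied, although earlier results of these data were known when they were chosen. All 10 passed the filter on low counts over the 13 libraries, as did 22596 genes in all, and 9 or 10 of them passed it in each comparison of a pair of groups.

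The hippocampi came from LIN28A-cKO mice (Nestin-Cre::Lin28aloxP/loxP) and LIN28A WT mice (Nestin-Cre::Lin28a+/+), male and female, that were 6 weeks old when they received pilocarpine or saline. There were 3 libraries of cKO mice after pilocarpine-induced status epilepticus (SE-cKO), 3 of WT mice after SE (SE-WT), 4 of saline-treated cKO mice (sham-cKO) and 3 of saline-treated WT mice (sham-WT), all at day 3. Males had received 260 mg/kg of pilocarpine and females 280 mg/kg, after scopolamine methyl nitrate and terbutaline, and diazepam ended SE after 3 h. Only mice that developed SE entered the SE groups. Both genotypes carried Nestin-Cre, which acts in neural progenitors and in the neurons, astrocytes and oligodendrocytes that descend from them, and not in microglia. No group lacked Cre. The labels do not give the sex of a library, and do not say whether a library is 1 mouse, so that p values measure the spread between these libraries.

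Cytokines of the IL-6 family, such as interleukin 6 and leukemia inhibitory factor, signal through receptor complexes that share the subunit gp130, which Il6st encodes. Gp130 activates Janus kinases, which phosphorylate STAT3, and STAT3 then enters the nucleus and switches on target genes. Among those targets is Socs3, whose product blocks gp130 and the kinases and so limits the signal. In the injured brain astrocytes respond to this pathway by becoming reactive, with more GFAP and vimentin filaments, and STAT3 is known to be needed for much of that response. Serpina3n, Lcn2, Steap4 and Cd44 are commonly used as genes of reactive astrocytes, although microglia, blood cells and vessels can express several of them as well.

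The labelled cell type could not be resolved in these data, since the RNA came from whole hippocampi and no cell was sorted. In bulk tissue, fewer cells of a type and less RNA per cell cannot be told apart. Markers of astrocytes were present in every library, and the summed level of 10 such markers (Aqp4, Aldh1l1, Slc1a2 and others) was 4795 to 5585 CPM in SE-cKO, 5013 to 5974 CPM in SE-WT, 5045 to 6364 CPM in sham-cKO and 5397 to 5753 CPM in sham-WT. CPM are counts scaled to a common library size. Library totals were 59659977 to 84354243 counts, and the variance between replicates was 57.2 to 530 times that of sampling alone. Lin28a, the deleted gene, had 0 counts in 12 libraries and 3 counts in 1 SE-WT library, so that it does not check the genotype labels. The libraries of SE-WT replicate 2, SE-WT replicate 3 and sham-cKO replicate 2 stood apart, with summed striatal markers of 1655 CPM in the first of these and summed thalamic markers of 1027 and 1588 CPM in the others. The other libraries held at most 203 CPM of striatal and 252 CPM of thalamic markers. Summed choroid plexus markers differed widely within every group, from 18.1 to 1209 CPM in SE-cKO, 18.1 to 663 CPM in SE-WT, 25.4 to 2700 CPM in sham-cKO and 54.0 to 4481 CPM in sham-WT. SE-WT replicate 3 was also high in oligodendrocyte markers, with 8266 CPM against 2757 to 5347 CPM in the other libraries. The titles of SE-cKO replicate 3 and SE-WT replicate 3 follow another pattern than the rest.

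To show whether the genes share a STAT motif near their start sites, promoters of 300 bases (250 before to 50 after the start) were taken from RefSeq on GRCm38.p6, and all 10 genes matched. The motif searched was TTCNNNGAA, which reads the same on both strands. It was present in 2 of the 10 promoters, compared with 8.47% of 27025 promoters of the same length. The stricter form TTCCNGGAA, a subset of the first, was present in 1 of the 10 and in 1.15% of all promoters. These were the promoters of Socs3 and Steap4, printed 5′ to 3′ with the match in capitals. The Socs3 window is chr11:117969317-117969616 on the minus strand, and its match starts 154 bases before the start site used. This window lies inside the annotated Socs3 gene (chr11:117966079-117970336), so the match is not upstream of the whole gene. The Osmr window, which has no match, likewise lies inside its annotated gene. The Steap4 window is chr5:7960222-7960521 on the plus strand, and its match, which is also of the strict form, starts 116 bases before the start site.
Socs3: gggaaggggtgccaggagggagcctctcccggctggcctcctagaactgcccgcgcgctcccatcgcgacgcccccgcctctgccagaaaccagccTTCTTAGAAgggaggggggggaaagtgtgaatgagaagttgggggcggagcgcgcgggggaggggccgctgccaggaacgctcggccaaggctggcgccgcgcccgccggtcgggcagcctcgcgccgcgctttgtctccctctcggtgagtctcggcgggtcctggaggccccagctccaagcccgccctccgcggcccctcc
Steap4: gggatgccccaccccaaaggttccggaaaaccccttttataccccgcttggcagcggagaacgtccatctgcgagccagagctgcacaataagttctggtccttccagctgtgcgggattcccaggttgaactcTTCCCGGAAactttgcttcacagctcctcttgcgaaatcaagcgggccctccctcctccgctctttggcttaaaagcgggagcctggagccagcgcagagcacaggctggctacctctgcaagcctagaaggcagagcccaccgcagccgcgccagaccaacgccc
A match is a run of letters and not a measured binding site, and the other 8 windows lack only these letters.

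Per unit of length, as deposited TPM, Serpina3n was the most abundant of the 10 genes in SE-cKO (671 ± 194 TPM, SD, n = 3), in SE-WT (263 ± 49.96 TPM, n = 3) and in sham-cKO (41.2 ± 16.7 TPM, n = 4). In sham-WT it came after Il6st, at 15.5 ± 4.38 TPM compared with 26.9 ± 1.67 TPM (n = 3). Stat3 averaged 55.3, 33.8, 13.2 and 10.8 TPM in SE-cKO, SE-WT, sham-cKO and sham-WT. Il6 was the lowest of the 10 in every group, at 0.473 TPM in SE-cKO, 0.201 TPM in SE-WT, 0.0742 TPM in sham-cKO and 0 TPM in sham-WT. The sham hippocampus thus held the shared receptor subunit and the transcription factor at appreciable levels, with very little of either ligand.

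The order of the groups was alike for most of the 10 genes, with SE-cKO above SE-WT and both above the sham groups. In CPM, all SE-WT libraries lay above all sham-WT libraries for 8 of the 9 genes tested, Steap4 being the exception (16.8% of all genes tested). They did so for Il6 too, which was too low to be tested there. All SE-cKO libraries lay above all sham-cKO libraries for 9 genes, Il6 being the exception (19.8% of all genes tested). The SE-cKO libraries lay above all SE-WT libraries for 7 genes, the exceptions being Il6, Il6st and Lcn2 (9.3% of all genes tested). The sham-cKO and sham-WT libraries overlapped for all 10 genes.

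**Figure D1:**
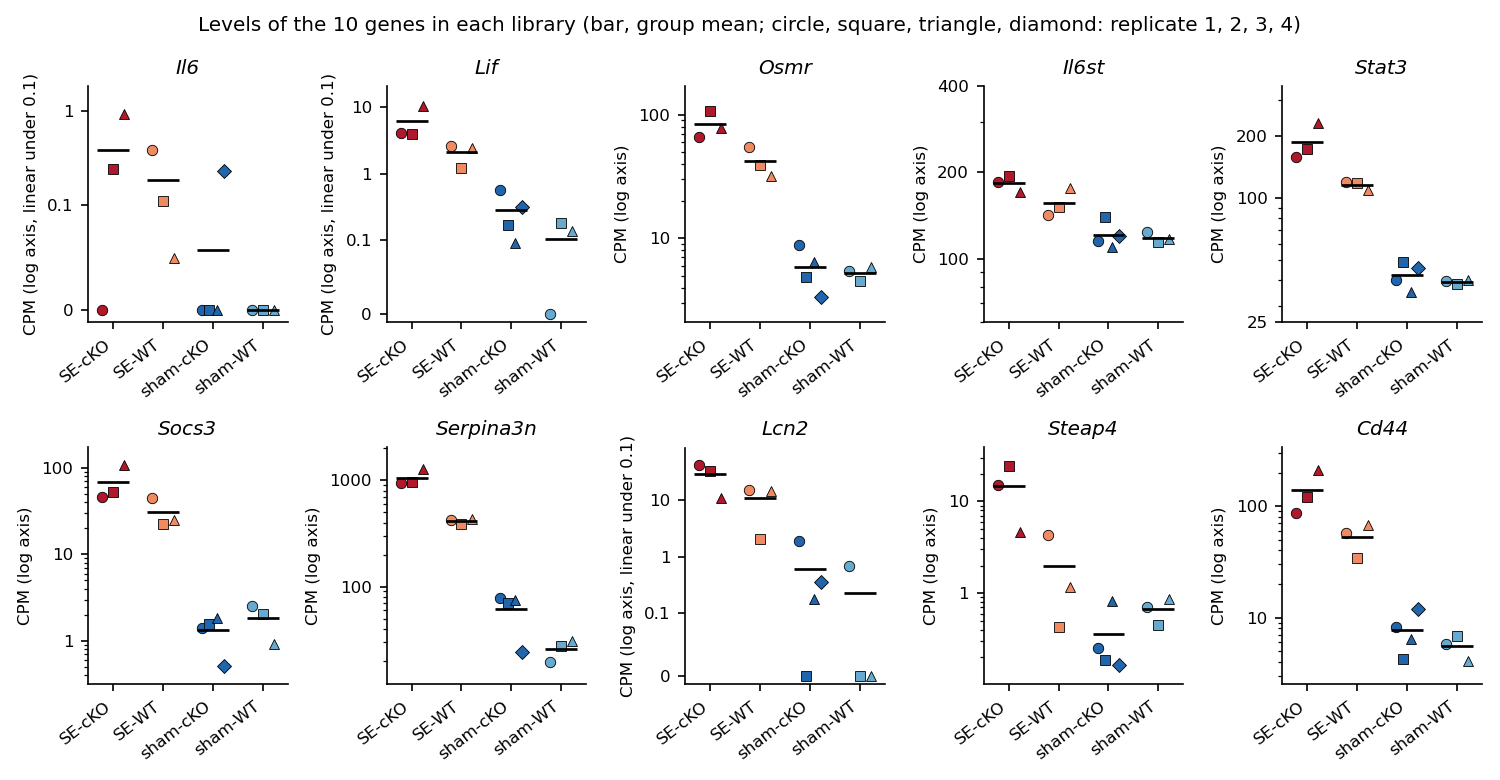
Level of each of the 10 genes in CPM in every library, on a log axis that is linear under 0.1 where a library is at 0; bars are group means. The SE-cKO and SE-WT points of Socs3, Osmr, Serpina3n and Cd44 lie above all sham points, the groups of Il6st lie close together, and Il6 stays under 1 CPM in every library.

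Il6, the ligand that gives the family its name, was barely detected. It had 0, 18 and 61 read counts in SE-cKO, 24, 8 and 4 counts in SE-WT, 0, 0, 0 and 14 counts in sham-cKO, and 0 counts in all 3 sham-WT libraries. The counts in SE-cKO span those of SE-WT, and 1 SE-cKO library had none. Relative to a floor of 3 counts per library, which stands for 0.0370 to 0.0506 CPM in sham-WT and covers counting error only, SE-WT was at least 4.23-fold higher, or at least 1.85-fold without SE-WT replicate 1. Il6 was too low to be tested between SE-WT and sham-WT, and its log2 fold change of 2.72 ± 1.88 (standard error of the fit) in SE-cKO compared with sham-cKO did not pass the test (adjusted p = 0.355).

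Lif, a ligand that astrocytes release after injury, was at 4.16, 4.03 and 10.5 CPM in SE-cKO and 2.66, 1.21 and 2.42 CPM in SE-WT. It was at 0.559, 0.171, 0.0955 and 0.311 CPM in sham-cKO and 0, 0.179 and 0.135 CPM in sham-WT. Every SE library lay above every sham library of its genotype, and SE-cKO replicate 3 was the highest. Lif rose in SE-cKO compared with sham-cKO, with a log2 fold change of 4.41 ± 0.62 (adjusted p = 0.0015, edgeR). In SE-WT compared with sham-WT its log2 fold change of 4.30 ± 0.98 fell just outside the threshold (adjusted p = 0.0528), and 6 of 15 alternative analyses called it.

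Osmr encodes the receptor subunit that pairs with gp130 to bind oncostatin M. Its levels were 66.2, 106 and 78.3 CPM in SE-cKO and 55.0, 39.0 and 31.8 CPM in SE-WT. They were 8.82, 4.88, 6.40 and 3.34 CPM in sham-cKO and 5.42, 4.53 and 5.90 CPM in sham-WT. All SE libraries were well above all sham libraries, and the lowest SE-cKO library was above the highest SE-WT library. Osmr rose in both genotypes, by 3.80 ± 0.33 (adjusted p = 1.23e-04) on the log2 scale in SE-cKO and by 2.96 ± 0.24 (adjusted p = 0.0017) in SE-WT.

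Il6st, the shared signal-transducing subunit, was already abundant in sham mice and moved little. It was at 185, 195 and 171 CPM in SE-cKO and 142, 152 and 177 CPM in SE-WT, against 116, 139.9, 109.6 and 120.4 CPM in sham-cKO and 124, 115 and 117 CPM in sham-WT. The SE libraries stood above the sham libraries of the same genotype, and the SE groups overlapped each other. The rise passed the test in SE-cKO (1.48-fold, log2 fold change of 0.57 ± 0.12, adjusted p = 0.0086). In SE-WT the log2 fold change was 0.38 ± 0.12, which did not pass (adjusted p = 0.137), although DESeq2 called it (adjusted p = 0.0472), as it did 9.11% of all genes.

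Stat3, the transcription factor of the axis, was at 158, 173 and 231 CPM in SE-cKO and 119, 118 and 110.1 CPM in SE-WT. In sham mice it was at 40.2, 49.2, 35.0 and 46.1 CPM in cKO and 39.7, 38.6 and 40.0 CPM in WT. The 3 SE-WT libraries differed by at most 1.08-fold, the 3 SE-cKO libraries by 1.47-fold, and no SE library came near a sham library. Stat3 was 4.31-fold higher in SE-cKO than in sham-cKO (log2 fold change of 2.11 ± 0.17, adjusted p = 9.37e-05) and 2.89-fold higher in SE-WT than in sham-WT (1.53 ± 0.11, adjusted p = 0.0011). The gene overlaps Stat5a on the opposite strand, which was at no more than 8.05 CPM in any library. The strand setting of the counting is not stated, so reads from the overlap cannot be told apart.

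Socs3, the feedback inhibitor, had the largest log2 fold change of the 10 genes in SE-cKO, ahead of Lcn2 and Steap4 by less than its standard error. It was at 45.9, 52.5 and 107 CPM in SE-cKO and 45.0, 22.6 and 25.2 CPM in SE-WT. It was at 1.40, 1.55, 1.83 and 0.508 CPM in sham-cKO and 2.54, 2.03 and 0.928 CPM in sham-WT. The lowest SE-cKO library was just above the highest SE-WT library, and the other libraries of those groups were farther apart. Socs3 rose by 5.66 ± 0.47 (adjusted p = 1.05e-04) on the log2 scale in SE-cKO compared with sham-cKO. In SE-WT compared with sham-WT it rose by 4.04 ± 0.45 (adjusted p = 0.0040).

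Serpina3n, a secreted serine protease inhibitor, was at 937, 959 and 1269 CPM in SE-cKO and 423, 389 and 429 CPM in SE-WT. In sham mice it was at 78.0, 70.9, 74.3 and 24.2 CPM in cKO and 19.5, 27.9 and 30.7 CPM in WT. The lowest SE-cKO library had more than the highest SE-WT library by a wide margin, and in sham-cKO 3 of 4 libraries stood above all sham-WT libraries. The log2 fold change was 4.06 ± 0.38 in SE-cKO (adjusted p = 1.93e-04) and 3.97 ± 0.20 in SE-WT (adjusted p = 6.06e-04). Serpina3n lies in a cluster of closely similar genes on chromosome 12, and the way shared reads were counted is not stated, so its counts and those of its neighbors are uncertain.

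Lcn2 encodes lipocalin 2, an iron-siderophore binding protein secreted by reactive astrocytes and by neutrophils. It was at 42.5, 33.4 and 10.8 CPM in SE-cKO and 15.4, 2.02 and 14.7 CPM in SE-WT. It was at 1.88, 0, 0.177 and 0.360 CPM in sham-cKO and 0.679, 0 and 0 CPM in sham-WT. The SE groups overlapped, since SE-cKO replicate 3 lay below 2 of the SE-WT libraries. Lcn2 rose in SE-cKO by 5.51 ± 1.09 on the log2 scale (adjusted p = 0.0079), and by 7.28 without sham-cKO replicate 1, which held most of the counts of its group. In SE-WT its log2 fold change was 5.46 ± 1.51, which did not pass (adjusted p = 0.0919) and which ran between 4.89 and 12.5 when libraries were left out in turn, the largest without sham-WT replicate 1, the only sham-WT library with counts.

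Steap4 encodes a metalloreductase that reduces iron and copper. It was at 15.0, 24.2 and 4.62 CPM in SE-cKO, against 0.255, 0.187, 0.833 and 0.164 CPM in sham-cKO, and rose by 5.30 ± 0.73 on the log2 scale (adjusted p = 0.0014), or by 6.13 without sham-cKO replicate 3. In SE-WT it was at 4.34, 0.427 and 1.17 CPM, against 0.716, 0.456 and 0.860 CPM in sham-WT. These groups overlapped, with SE-WT replicate 2 below all 3 sham-WT libraries, and the log2 fold change of 1.51 ± 0.80 did not pass (adjusted p = 0.335). It was 0.22 without SE-WT replicate 1. It was 2.67 and passed (adjusted p = 0.0161) without SE-WT replicates 2 and 3, where the 1 SE-WT library left is assumed to vary like the sham libraries.

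Cd44, the cell surface receptor for hyaluronan and osteopontin, was at 86.7, 121 and 209.9 CPM in SE-cKO and 57.9, 33.9 and 67.9 CPM in SE-WT. It was at 8.27, 4.23, 6.39 and 11.98 CPM in sham-cKO and 5.75, 6.88 and 4.05 CPM in sham-WT. The 4 groups kept their order, with no overlap between SE-cKO and SE-WT or between either and its sham group. The log2 fold change was 4.14 ± 0.41 in SE-cKO (adjusted p = 2.31e-04) and 3.23 ± 0.32 in SE-WT (adjusted p = 0.0029).

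Counted together, 9 of the 10 genes tested rose in SE-cKO compared with sham-cKO, where 13.8% of all 21307 genes tested were called higher and 8.92% lower, and none fell. In SE-WT compared with sham-WT, 5 of the 9 genes tested rose (Stat3, Socs3, Osmr, Serpina3n and Cd44), where 4.57% of all 20803 genes tested were called higher and 0.832% lower. The median log2 fold change over the genes of the axis that were tested was 4.10 in cKO and 3.23 in WT, compared with -0.0006 and 0.0152 over all genes. With Il6 set at its lower bound the WT median was 3.10. Each of the 9 calls in cKO was made under all 16 alternatives, and each of the 5 calls in WT under all 15.

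**Figure D2:**
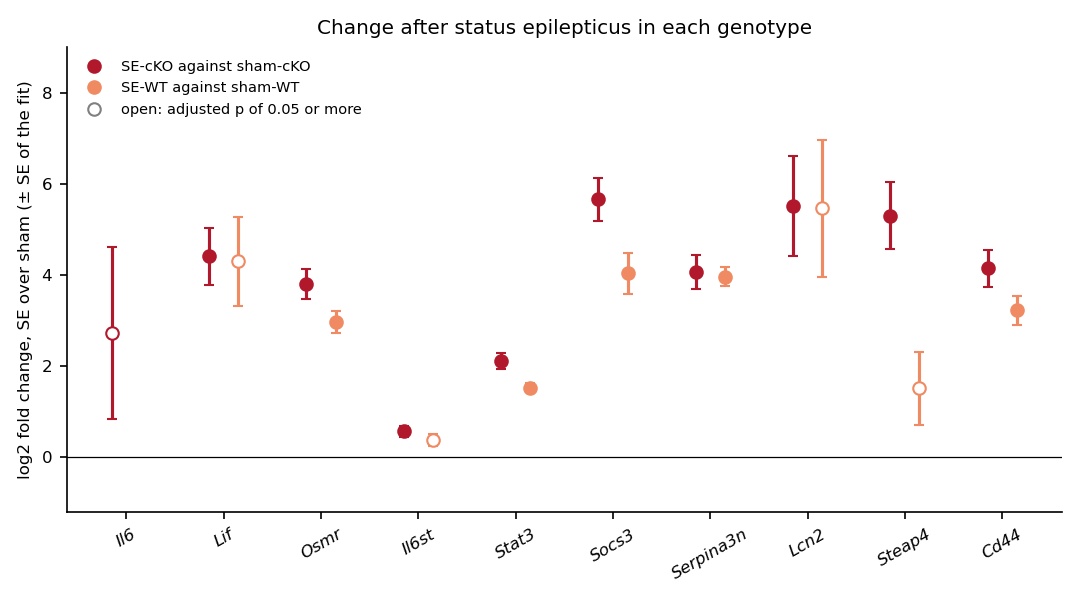
Log2 fold change of each gene after SE, with the standard error of the fit, for SE-cKO against sham-cKO and, to its right, SE-WT against sham-WT; filled points passed an adjusted p of 0.05. Steap4 has the widest gap between the genotypes (5.30 and 1.51), Lif, Serpina3n and Lcn2 have almost none, and Il6 was tested in cKO only.

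The question of whether LIN28A deletion altered this axis after SE was addressed by comparing SE-cKO with SE-WT directly. These groups are the same libraries as in the comparisons with sham, so the results are not independent of them. All 10 genes had higher mean levels in SE-cKO, and none of the differences passed the test with edgeR after adjustment, as for all 21126 genes tested (0.0% called). At an unadjusted p under 0.05, 7 of the 10 genes were higher (5.42% of all genes), and the same 7 did not overlap between the groups (9.3% of all genes). These were Stat3, Socs3, Lif, Osmr, Serpina3n, Steap4 and Cd44. Limma voom called none of them higher, as it called none of all genes tested higher (0.0%).

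The largest of these differences was that of Steap4, at 2.86 ± 0.89 on the log2 scale (unadjusted p = 0.0136, adjusted p = 0.389). Serpina3n differed by 1.32 ± 0.19 and had the smallest p of the 10 genes (unadjusted p = 1.31e-04, adjusted p = 0.236). Lif differed by 1.55 ± 0.50, Cd44 by 1.36 ± 0.38 and Socs3 by 1.12 ± 0.40, with adjusted p of 0.402, 0.347 and 0.428. The difference was 0.96 ± 0.26 for Osmr and 0.66 ± 0.19 for Stat3 (adjusted p = 0.347 and 0.359). DESeq2 called 3 of the 10 genes higher, Serpina3n (adjusted p = 9.35e-07), Steap4 (0.0142) and Cd44 (0.0300), where it called 1.44% of all genes higher. The receptor subunit Il6st differed by 0.19 ± 0.16 (adjusted p = 0.791), Lcn2 by 1.40 ± 0.74 (adjusted p = 0.608) and Il6 by 1.07 ± 1.46 (adjusted p = 0.896), and the groups overlapped for these 3. The median over the 10 genes was 1.22, compared with 0.0008 over all genes.

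The libraries that stood apart bear on this comparison, since 2 of the 3 SE-WT libraries were high in striatal or thalamic genes. Without them and with SE-WT replicate 1 alone, the log2 differences were 1.29 for Serpina3n, 1.71 for Steap4, 1.24 for Cd44, 0.62 for Stat3, 0.59 for Socs3, 0.57 for Osmr and 1.21 for Lif. Without the 2 libraries of the other title pattern, which include SE-cKO replicate 3, they were 1.16, 2.99, 1.12, 0.41, 0.48, 0.82 and 1.02 for the same genes in that order. None of the 10 genes passed the test in either case. With single libraries left out, Steap4 ran from 2.28 (SE-cKO replicate 2 dropped) to 4.13 (SE-WT replicate 1 dropped).

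In sham mice, none of the 9 genes tested differed between the genotypes after adjustment, as for all 20785 genes (0.0% called). The closest was Serpina3n, whose mean of 61.8 ± 25.3 CPM in sham-cKO (SD, n = 4) was 2.40-fold that of 26.0 ± 5.84 CPM in sham-WT (SD, n = 3). Its log2 difference was 1.26 ± 0.41 (unadjusted p = 0.0165, adjusted p = 0.868), and the groups overlapped through sham-cKO replicate 4. At an unadjusted p under 0.05, 3.81% of all genes were higher in sham-cKO. The other 8 genes had log2 differences between -0.89 (Steap4) and 1.45 (Lif), all with an adjusted p of 0.880 or more. DESeq2 called none of the 9, and 0.0722% of all genes higher. No gene of the 9 separated the groups, as 3.88% of all genes did with sham-cKO higher.

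**Figure D3:**
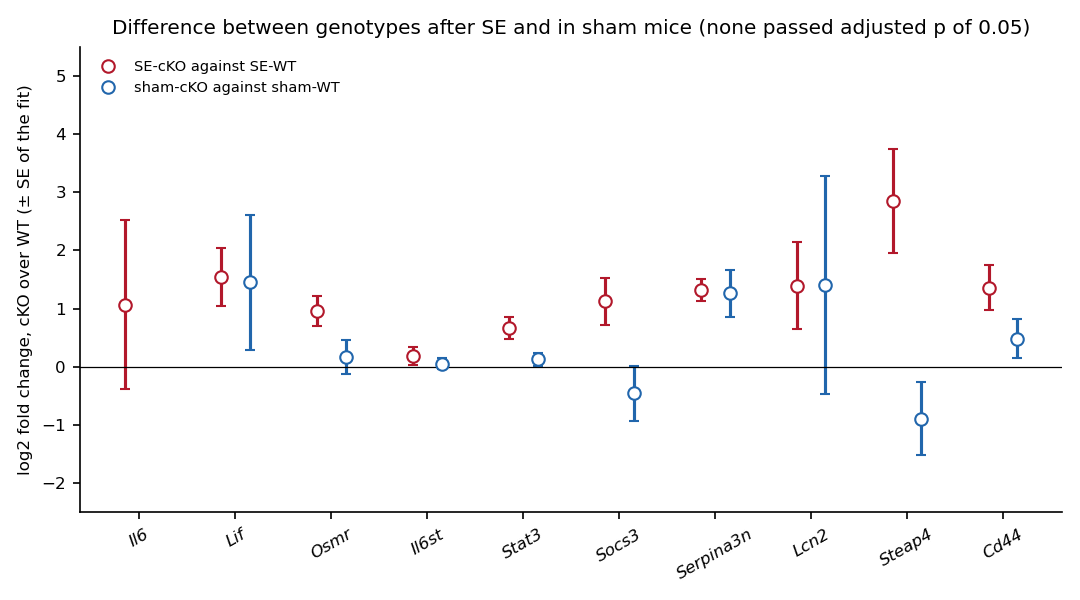
Log2 difference of each gene between cKO and WT, with the standard error of the fit, after SE (left point of each gene) and in sham mice (right point, none for Il6). All points after SE lie above 0, from 0.19 for Il6st to 2.86 for Steap4, and those in sham mice lie on both sides of 0; none passed an adjusted p of 0.05 in edgeR.

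The interaction, which subtracts the WT response to SE on the log2 scale, tests whether the response differed with genotype. None of the 10 genes passed it, where 0.0841% of 22596 genes were called positive and 0.0752% negative, and 3 did so at an unadjusted p under 0.05 (6.21% of all genes positive). These were Stat3 (0.58 ± 0.21, adjusted p = 0.264), Socs3 (1.62 ± 0.65, adjusted p = 0.323) and Steap4 (3.79 ± 1.14, adjusted p = 0.199). DESeq2 called 1 of the 10, Steap4 (adjusted p = 0.0197), and 1.6% of all genes positive. For Serpina3n the interaction was 0.10 ± 0.46, the difference between genotypes being of like size in SE and sham mice. For Lif it was 0.11 ± 1.31 and for Lcn2 0.07 ± 1.99, so that at these levels a large difference either way would not be seen.

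Within SE-cKO the 10 genes did not all follow the same order of libraries. In this group, replicate 3 had the highest Stat3, Socs3, Il6, Lif, Serpina3n and Cd44, with 2.18 times the mean of the other SE-cKO libraries for Socs3, 2.57 times for Lif and 2.03 times for Cd44. The same library had the lowest Lcn2 and Steap4, with 0.286 and 0.236 times the mean of the others, and the lowest Il6st at 0.900 times. Its summed microglia markers were also the lowest of the SE-cKO group, at 1597 CPM, against 2514 and 2562 CPM in the others, as were its monocyte and border macrophage markers (40.2 CPM, against 87.5 and 126 CPM). Endothelial markers (177 CPM, against 372 and 265 CPM) and pericyte and smooth muscle markers (286 CPM, against 455 and 370 CPM) were lowest in it too. So were meningeal fibroblast markers (303 CPM, against 471 and 346 CPM) and choroid plexus markers (18.1 CPM, against 1209 and 96.5 CPM). Its neutrophil markers were not the lowest (32.8 CPM, against 22.6 and 41.4 CPM). In SE-WT, replicate 1 was highest for 7 of the 10 genes, with 5.43 times the mean of the others for Steap4, and replicate 2 was lowest for 6 (Socs3, Lif, Serpina3n, Lcn2, Steap4 and Cd44). The part of these cell types in the differences was not tested.

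**Figure D4:**
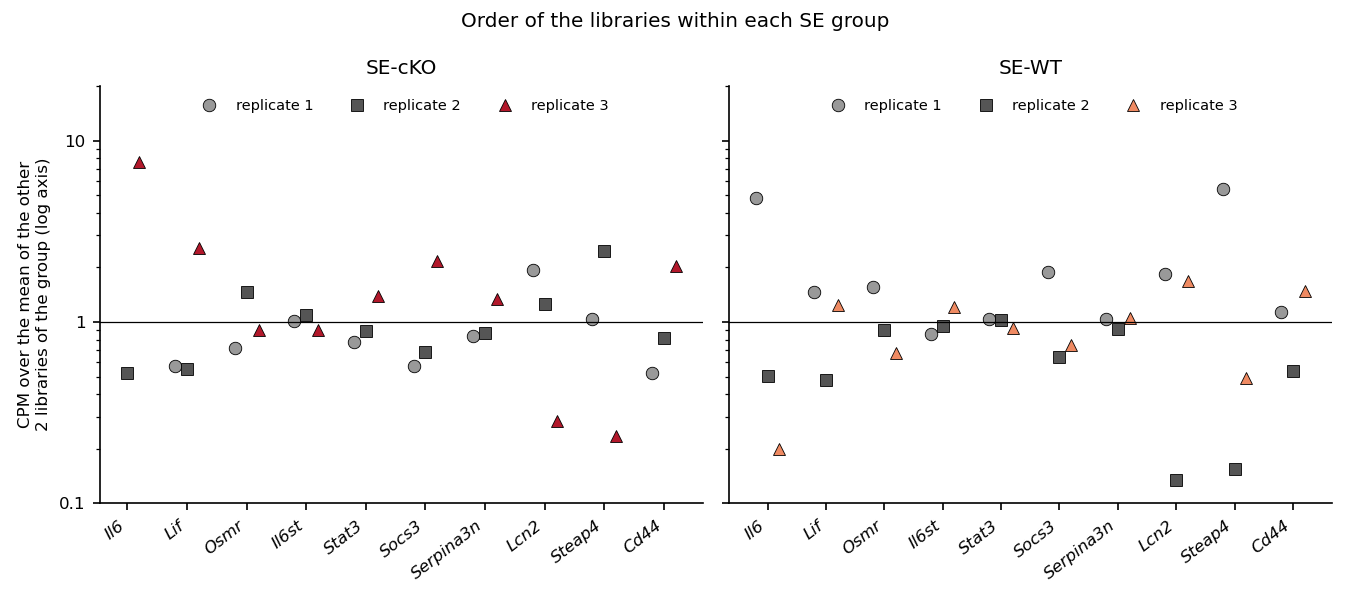
Level of each gene in each SE library over the mean of the other 2 libraries of its group, on a log axis, in SE-cKO (left) and SE-WT (right); a library at 0 (Il6 in SE-cKO replicate 1) is left out. In SE-cKO, replicate 3 lies above 1 for Lif, Socs3, Stat3, Serpina3n and Cd44 and far below 1 for Lcn2 and Steap4 (0.286 and 0.236).

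The other genes of the pathway were read from lists by function, and the counts and medians of the lists leave out the 10 genes of the axis. Over all genes tested, 13.8% were called higher in SE-cKO compared with sham-cKO and 4.57% in SE-WT compared with sham-WT. A larger count in SE-cKO is thus not by itself a difference between genotypes. DESeq2 called 9.11% of all genes higher in SE-WT compared with sham-WT. Its share of all genes in SE-cKO compared with sham-cKO is not given here. The shares at an unadjusted p under 0.05 against sham are not given either. List and marker counts of those kinds therefore cannot be weighed against all genes. Of the other IL-6 family cytokines, 4 of 7 tested rose in SE-cKO compared with sham-cKO and 1 of 7 rose in SE-WT compared with sham-WT, with median log2 fold changes of 2.68 and 1.10. With Il6 and Lif the medians were 2.72 and 2.11. Without them, 5 of the 7 were higher in SE-cKO and 3 in SE-WT at an unadjusted p under 0.05. DESeq2 called 3 in each genotype, and none passed the interaction in edgeR. Osm, which encodes oncostatin M, the ligand of Osmr made mainly by myeloid cells, rose in both genotypes, by 5.05 ± 1.03 in SE-cKO (adjusted p = 0.0090) and by 5.53 ± 1.19 in SE-WT (adjusted p = 0.0454). It was at 1.62 ± 0.381 CPM in SE-cKO and 0.744 ± 0.430 CPM in SE-WT (SD, n = 3 each), against 0.0464 ± 0.0644 CPM in sham-cKO (n = 4) and 0.0138 ± 0.0239 CPM in sham-WT (n = 3). Its read counts were 0, 0, 10 and 3 in sham-cKO and 0, 3 and 0 in sham-WT. The sizes of its log2 fold changes are therefore uncertain and cannot be compared between genotypes. Clcf1, which encodes a ligand of the ciliary neurotrophic factor receptor, rose in SE-cKO by 5.07 ± 0.26 (adjusted p = 1.62e-05) and had 3.12 ± 0.75 in SE-WT (adjusted p = 0.0630). Cntf, the gene of ciliary neurotrophic factor itself, rose by 2.68 ± 0.53 in SE-cKO (adjusted p = 0.0076), and had 1.10 ± 0.56 in SE-WT (adjusted p = 0.317). Il11 rose by 3.69 ± 0.93 in SE-cKO (adjusted p = 0.0220), with 0.600, 0.507 and 6.28 CPM in the 3 libraries, so that replicate 3 held most of it. Ctf1 and Ebi3 passed in neither genotype, and Ctf2 and Il27 were too low to be tested.

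Of the 6 other receptor genes, 2 rose in SE-cKO (Il6ra and Il11ra1) and 0 in SE-WT, with medians of 0.56 and -0.01. In SE-WT, 2 were higher at an unadjusted p under 0.05, and DESeq2 called 1. Il6ra, which encodes the subunit specific to interleukin 6, was at 6.56 ± 1.10 CPM in SE-cKO and 5.33 ± 1.79 CPM in SE-WT, against 2.52 ± 0.543 CPM in sham-cKO and 2.15 ± 0.352 CPM in sham-WT. Its log2 fold change was 1.35 ± 0.25 in SE-cKO (adjusted p = 0.0054) and 1.28 ± 0.31 in SE-WT (adjusted p = 0.0606). Il11ra1 rose by 0.66 ± 0.19 in SE-cKO (adjusted p = 0.0375), and it has a near-identical copy, Il11ra2 (0.46 ± 0.31, adjusted p = 0.345), so both are uncertain. Lifr, the partner of gp130 for leukemia inhibitory factor, had log2 fold changes of 0.08 ± 0.15 in SE-cKO and 0.11 ± 0.23 in SE-WT, and Cntfr of -0.28 ± 0.32 and 0.77 ± 0.26. Il27ra had 0.74 ± 0.32 and -0.32 ± 0.57. Among the receptor genes, Osmr thus had by far the largest log2 fold change in both genotypes.

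Of the 10 Janus kinase and STAT genes besides Stat3, 7 rose in SE-cKO and 1 rose in SE-WT (Jak3), with medians of 1.19 and 0.76. Higher at an unadjusted p under 0.05 were 8 of the 10 in SE-cKO and 6 in SE-WT. DESeq2 called 7 and 4, and none passed the interaction in edgeR. Jak3, a kinase best known from blood cells, rose by 2.49 ± 0.30 in SE-cKO (adjusted p = 6.46e-04) and by 1.63 ± 0.27 in SE-WT (adjusted p = 0.0188). Stat2 and Stat6 rose in SE-cKO by 1.11 ± 0.13 and 1.28 ± 0.17 (adjusted p = 4.92e-04 and 0.0012), and had 0.76 ± 0.30 and 0.77 ± 0.22 in SE-WT (adjusted p = 0.205 and 0.105). Stat3 thus rose in company with other STAT genes in SE-cKO.

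Of the 15 inhibitors of Janus kinase and STAT signaling besides Socs3, 3 rose and 1 fell in SE-cKO, and 1 rose in SE-WT, with medians of 0.11 and 0.13. Ptpn6, a tyrosine phosphatase of blood cells and microglia, rose in both genotypes, by 3.45 ± 0.25 in SE-cKO (adjusted p = 6.23e-05) and by 2.19 ± 0.20 in SE-WT (adjusted p = 0.0027). Socs1 and Ptpn1 rose in SE-cKO by 2.03 ± 0.61 and 0.74 ± 0.17 (adjusted p = 0.0458 and 0.0140). Socs5 fell in SE-cKO, with a log2 fold change of -0.68 ± 0.12 (adjusted p = 0.0054), and had -0.02 ± 0.12 in SE-WT. The remaining family members, among them Socs2, Socs4, Socs6, Socs7, Cish and the Pias genes, did not pass in either genotype, so that Socs3 stood well above its paralogs in log2 fold change.

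Of 17 other genes known as STAT3 targets, 12 rose in SE-cKO and 8 rose in SE-WT, with medians of 1.88 and 0.93. Timp1, an inhibitor of matrix metalloproteinases, was at 51.8 ± 3.52 CPM in SE-cKO and 17.4 ± 9.22 CPM in SE-WT, against 0.113 ± 0.0858 CPM in sham-cKO and 0.0966 ± 0.167 CPM in sham-WT. Cebpd, a transcription factor of the acute phase response, rose by 2.91 ± 0.21 in SE-cKO (adjusted p = 5.90e-05) and by 1.33 ± 0.24 in SE-WT (adjusted p = 0.0246). Il4ra, a subunit of the interleukin 4 receptor, rose by 3.24 ± 0.19 and 2.00 ± 0.24 in SE-cKO and SE-WT, and the adhesion molecule gene Icam1 by 3.03 ± 0.24 and 1.62 ± 0.29. All 4 rose in both genotypes. They were named for their small p in SE-cKO against sham-cKO, and none passed the interaction in edgeR (adjusted p = 0.0999 to 0.707). Of the 17 genes, 6 were positive there at an unadjusted p under 0.05 (6.21% of all genes), and DESeq2 called 3 (1.6%). In SE-cKO against SE-WT, edgeR called 0 of the 17, 8 were higher at an unadjusted p under 0.05 (5.42% of all genes), and DESeq2 called 4 (1.44%).

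Of 8 other pan-reactive astrocyte genes, from a list that also holds 5 of the 10 genes of the axis, 8 rose in SE-cKO and 7 in SE-WT, with medians of 4.63 and 3.00. Gfap was at 4688 ± 308 CPM in SE-cKO and 2696 ± 95.3 CPM in SE-WT, against 276 ± 34.8 CPM in sham-cKO and 327 ± 30.4 CPM in sham-WT. Vim was at 1530.4 ± 205 CPM in SE-cKO and 784 ± 91.5 CPM in SE-WT, against 27.8 ± 3.49 CPM in sham-cKO and 34.0 ± 5.19 CPM in sham-WT. For both of these filament genes the interaction passed the test in edgeR, with 1.05 for Gfap (adjusted p = 0.0439) and 1.26 for Vim (adjusted p = 0.0486). The direct difference between SE-cKO and SE-WT did not (adjusted p = 0.296 and 0.284), as for all genes tested. All SE-cKO libraries lay above all SE-WT libraries for both (9.3% of all genes). Of the 8 genes, 7 were higher there at an unadjusted p under 0.05 (5.42% of all genes), and DESeq2 called 5 higher (1.44%). The interaction also takes in the sham groups, where cKO was lower by -0.24 ± 0.12 for Gfap and -0.28 ± 0.13 for Vim on the log2 scale (adjusted p = 0.868 for both, edgeR). Its fit shares the spread of all 13 libraries, and SE libraries varied more than sham libraries. Of the 12 genes linked to the endotoxin response of astrocytes, 9 rose and 1 fell in SE-cKO, and 6 of 11 rose in SE-WT, with medians of 2.34 and 1.75. Of the 12 linked to ischemia besides Stat3, 12 rose in SE-cKO and 8 rose in SE-WT, with medians of 3.11 and 1.91. The examples Srgn, Ggta1, H2-D1 and Gbp2 of the endotoxin list had log2 fold changes of 3.15, 3.59, 2.83 and 3.49 in SE-cKO and of 1.75, 2.36, 2.01 and 2.93 in SE-WT, and all passed. Of the ischemia list, Tm4sf1 and Emp1 rose by 3.00 and 3.84 in SE-cKO and by 1.86 and 3.14 in SE-WT. Tgm1, a transglutaminase, was at 171 ± 49.1 CPM in SE-cKO and 68.0 ± 17.6 CPM in SE-WT. It had 0 counts in all sham-WT libraries, which makes SE-WT at least 1579.6-fold higher over a floor of 3 counts per library.

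Genes of the NF-kB, IL-1 and TNF pathways, which also induce Lcn2, Steap4 and Il6, rose in 11 of 12 cases in SE-cKO and in 3 of 12 in SE-WT, with medians of 1.59 and 0.64. Counted at an unadjusted p under 0.05, 11 were higher in SE-cKO and 7 in SE-WT, and DESeq2 called 10 and 4. None of the 12 passed the interaction in edgeR, and DESeq2 called 2 positive there (1.6% of all genes). Tnf was at 2.51 ± 0.504 CPM in SE-cKO and 0.628 ± 0.446 CPM in SE-WT and at 0 counts in every sham library, at least 58.0-fold and 14.6-fold higher over the same floor. Without SE-WT replicate 1 the bound in SE-WT was 9.53-fold. Tnfrsf1a and Nfkb2 rose in both genotypes, by 3.26 ± 0.14 and 2.22 ± 0.17 in SE-cKO and by 2.29 ± 0.21 and 1.88 ± 0.26 in SE-WT. Il1a rose by 2.31 ± 0.25 in SE-cKO (adjusted p = 4.02e-04) and had 2.08 ± 0.50 in SE-WT (adjusted p = 0.0614).

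The genes that act with individual members of the axis followed them in part. Of 11 genes for the synthesis, breakdown or binding of hyaluronan or for partners of CD44, 8 rose and 1 fell in SE-cKO, and 3 rose and 1 fell in SE-WT, with medians of 0.93 and 0.77. DESeq2 called 8 higher in SE-cKO and 5 in SE-WT, where 6 were higher at an unadjusted p under 0.05. Msn, which links CD44 to actin, rose in both genotypes (3.72 ± 0.21 in SE-cKO and 2.36 ± 0.25 in SE-WT), as did the hyaluronan synthase gene Has2 (4.62 ± 0.44 and 3.01 ± 0.60). Its paralog Has3 fell in both, with -1.99 ± 0.43 in SE-cKO and -1.53 ± 0.25 in SE-WT (adjusted p = 0.0113 and 0.0179). Spp1, which encodes osteopontin, and Ezr rose in SE-cKO by 6.20 ± 0.40 and 2.14 ± 0.24, and had 3.93 ± 0.91 and 1.07 ± 0.25 in SE-WT (adjusted p = 0.0557 and 0.0538).

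Of the Serpina3 paralogs besides Serpina3n, 3 of 6 tested rose in SE-cKO and 1 of 5 in SE-WT, with medians of 3.43 and 2.27. Each genotype had 4 higher at an unadjusted p under 0.05, and DESeq2 called 4 in SE-cKO and 3 in SE-WT. Serpina3n was the most abundant of the family in every group, the next by mean TPM being Serpina3m in SE-cKO (13.8 TPM) and SE-WT (7.32 TPM). Serpina3m was at 21.6, 1.75 and 26.2 CPM in SE-cKO and 8.98, 9.20 and 8.97 CPM in SE-WT, with 0 counts in all sham libraries, at least 381-fold and 210.4-fold higher over the floor. Serpina3i and Serpina3h rose in SE-cKO by 6.54 ± 0.88 and 3.27 ± 0.88, and had 4.67 ± 1.21 and 2.27 ± 0.75 in SE-WT (adjusted p = 0.0769 and 0.142). Serpina3c passed in neither genotype (3.58 ± 1.20 in SE-cKO and 1.36 ± 0.51 in SE-WT).

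Of the 5 other genes of the Steap family or for receptors of lipocalin 2, 1 rose in SE-cKO (Steap3) and 0 in SE-WT, with medians of -0.21 and -0.55. In SE-WT, 0 also passed in DESeq2 or at an unadjusted p under 0.05. In SE-cKO, 1 was lower in DESeq2 and 1 was lower at an unadjusted p under 0.05. Steap3 rose by 1.59 ± 0.16 in SE-cKO (adjusted p = 3.15e-04) and had 0.47 ± 0.30 in SE-WT. The lipocalin 2 receptor genes Slc22a17 and Lrp2 had log2 fold changes of -0.60 ± 0.21 and 0.09 ± 0.52 in SE-cKO and -0.26 ± 0.17 and -0.77 ± 0.58 in SE-WT, and Steap2 had -0.41 ± 0.39 and -0.55 ± 0.48, none of which passed in edgeR after adjustment. In the direct comparison of SE-cKO with SE-WT, edgeR called 0 of the 118 genes tested from these lists. At an unadjusted p under 0.05, 42 were higher and 1 was lower in SE-cKO, and DESeq2 called 21 higher and 0 lower. Over all genes tested, 5.42% were higher at that unadjusted p, and DESeq2 called 1.44% higher.

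Markers of other cell types moved with the axis after SE. All 10 microglia markers rose in both genotypes, with summed levels of 1597 to 2562 CPM in SE-cKO and 1343 to 1813 CPM in SE-WT, against 381 to 416 CPM in sham-cKO and 399 to 431 CPM in sham-WT. Of the 10 astrocyte markers, 4 rose and 1 fell in SE-cKO and 3 rose in SE-WT. Their summed levels overlapped between the groups, but the median over the 10 markers of the log2 level relative to sham did not, at 0.47 to 0.65 in SE-cKO and 0.33 to 0.81 in SE-WT, against -0.13 to 0.06 in sham-cKO and -0.08 to 0.01 in sham-WT. Monocyte and border macrophage markers rose in 6 of 10 cases in SE-cKO and in 0 of 10 in SE-WT, with sums of 40.2 to 126 CPM in SE-cKO and 24.1 to 68.1 CPM in SE-WT, against 23.5 to 35.1 CPM in sham-cKO and 19.6 to 30.6 CPM in sham-WT. In SE-WT, 3 of these markers were higher at an unadjusted p under 0.05, and DESeq2 called 3. Endothelial markers rose in 3 of 10 cases in SE-cKO and in 0 of 10 in SE-WT, where 0 passed in DESeq2 or at an unadjusted p under 0.05. Of the pericyte and smooth muscle markers 2 of 9 rose in SE-cKO and 0 of 9 in SE-WT, where 2 were higher at an unadjusted p under 0.05 and 2 in DESeq2. Of the meningeal fibroblast markers 3 of 10 rose in SE-cKO and 0 of 10 in SE-WT, where 0 were higher at an unadjusted p under 0.05 or in DESeq2. Markers of hippocampal neurons moved the other way, since 4 of 8 granule cell markers fell in SE-cKO and 2 of 8 in SE-WT, and 3 of 8 pyramidal cell markers fell in SE-cKO and 1 of 8 in SE-WT. Between SE-cKO and SE-WT, edgeR called 0 markers of these cell types. At an unadjusted p under 0.05, 4 of 10 microglia, 3 of 9 pericyte and smooth muscle, and 3 of 10 meningeal fibroblast markers were higher in SE-cKO (5.42% of all genes). DESeq2 called 1, 2 and 1 of these lists higher (1.44% of all genes). The part of these cell types in the results was not tested.

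Neutrophils are a known source of lipocalin 2, and their markers were low in every group. Their sums were 22.6 to 41.4 CPM in SE-cKO and 14.9 to 20.4 CPM in SE-WT, against 3.56 to 7.32 CPM in sham-cKO and 2.66 to 6.17 CPM in sham-WT, most of it Csf3r, which microglia also express. Of the 12 markers, 3 of 9 tested rose in SE-cKO and 1 of 4 rose in SE-WT (Csf3r). Elane was at 0 in every library, Ly6g and Retnlg were at 0 in all SE-WT and sham-WT libraries, and Retnlg averaged 0.244 CPM in SE-cKO and 0.125 CPM in sham-cKO. The granule protein gene S100a8 was at 2.30 ± 1.41 CPM in SE-cKO and 0.328 ± 0.214 CPM in SE-WT, a log2 difference of 2.77 ± 0.78 that did not pass (adjusted p = 0.349). All 7 neutrophil markers tested between SE-cKO and SE-WT had a positive log2 difference. Of these, 4 were higher at an unadjusted p under 0.05 (5.42% of all genes), and DESeq2 called 3 higher (1.44% of all genes). The part of neutrophils in the levels of Lcn2 was not tested.

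**Figure D5:**
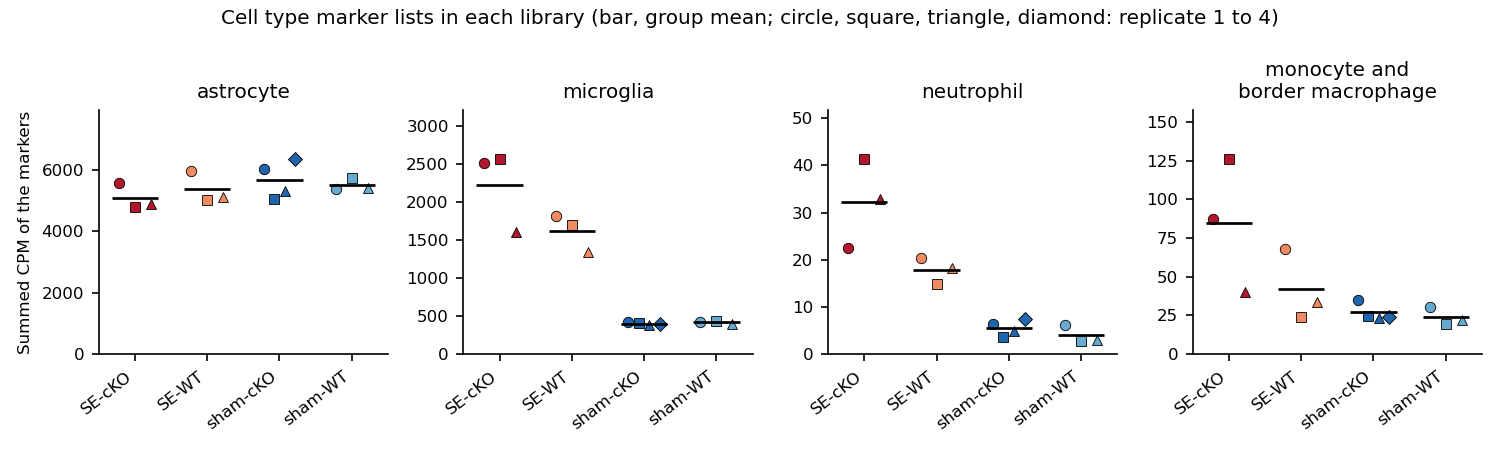
Summed CPM of the markers of astrocytes, microglia, neutrophils, and monocytes with border macrophages in each library, each on its own axis from 0; bars are group means. The astrocyte sums, to which abundant markers add most, overlap between the 4 groups (4795 to 6364 CPM over all libraries), the microglia sums of both SE groups are 1343 CPM or more with the sham sums at 431 CPM or less, and SE-cKO replicate 3 has the lowest microglia sum of its group.

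The genes most like the axis in pattern were sought over the 13 libraries as those with the smallest root mean square difference between their own log2 CPM, relative to sham-WT, and the median of the 10 genes. Of 15892 genes compared, the nearest was S1pr3, a receptor of sphingosine 1-phosphate found on reactive astrocytes, with a difference of 0.21. It was followed by Runx1 (0.28), a transcription factor of blood cells and activated microglia, and Itga5 (0.29), an integrin subunit. Gldn (0.34), which encodes gliomedin, and Rac2 (0.37), a GTPase of blood cells, came next. S1pr3 was at 141 ± 45.7 CPM in SE-cKO and 49.0 ± 12.8 CPM in SE-WT, against 6.20 ± 1.09 CPM in sham-cKO and 6.04 ± 0.375 CPM in sham-WT. With a smaller prior count of 0.5 the order changed to Gldn, S1pr3, Itga5, Runx1 and Gpnmb. The points share libraries, and the measure is a description with no test.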

How the data were processed

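RNA-Seq libraries of total RNA from whole hippocampi (stranded TruSeq kits) had been made by the authors, who used bcl2fastq 2.20.0, Trimmomatic, HISAT2 2.1.0 on mm10 and StringTie 2.1.3b. The strand setting of the counting is not given in the sources used here. The deposited table holds whole read counts, FPKM and TPM for 45777 genes in each of 13 libraries. The counts as deposited by the authors were used for all tests, the TPM made by the authors for levels between genes, and FPKM were not used. CPM are counts scaled by TMM library sizes.

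Genes were filtered with filterByExpr (minimum count 10, minimum total 15) and compared by quasi-likelihood F tests (robust setting, edgeR 4.0.16, R 4.3.3), on the 2 groups compared or, for the interaction, on all 13 libraries. Values after ± are standard errors of the fit unless SD is stated. P values were adjusted by the Benjamini-Hochberg method across every gene in a test, with a threshold of 0.05. The edgeR fits were also run on simulated counts of independent libraries with the same spread in both groups. The simulation did not cover the libraries that stood apart or the uneven spread of SE and sham libraries, and its outcome is not reported here. Libraries were grouped by genotype and treatment labels. Replicate numbers follow the order of the samples within a group, so equal numbers need not mean a pair, and no pairing was used.

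The genes of the axis, the lists and the tests were chosen with earlier results of these data known. Named genes are the 10 genes, up to 4 others per list with the smallest p in SE-cKO against sham-cKO, every tested IL-6 family cytokine and receptor, and the 5 genes nearest in pattern, although some genes the rule names are not reported here; Has3, Csf3r, S100a8, Ly6g, Elane and Retnlg were named after their values were seen. The alternatives included no filter, DESeq2 1.42.0, a replicate block, RLE size factors, 1 fit over all 4 groups, limma 3.58.1 voom with quality weights, Xist level as a covariate, and libraries left out. Coordinates are GRCm38.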

Additional observations from a re-analysis of the deposited data

Results flagged for a closer look

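In the group of 4 sham-cKO libraries, 3 genes of the axis had 1 library far from the others by Dixon's criterion at its 95% critical value, which chance meets in about 1 in 20 groups. Il6 was at 0.229 CPM in replicate 4 and at 0 in the other 3 libraries, where the tie at 0 fixes the outcome for any level above 0 and the chance rate does not apply. Serpina3n was at 24.2 CPM in replicate 4, against 70.9 to 78.0 CPM in the others, and this library lay within the range of sham-WT. Steap4 was at 0.833 CPM in replicate 3, against 0.164 to 0.255 CPM in the others. Only sham-cKO has the 4 libraries that the criterion needs, so the 10 genes were examined in that group alone.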

How the results depend on the processing

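The counts of genes called kept within 1.5 times under the alternatives run, except where DESeq2 called 3 of the 10 in SE-cKO against SE-WT and 1 in the interaction, compared with 0 in edgeR. When libraries were left out in turn, 9 genes passed in SE-cKO against sham-cKO in each case, 5 to 6 in SE-WT against sham-WT, and 0 in the other comparisons. Of the single log2 values, 737 kept direction and call, 13 passed in addition, none was lost and 37 changed sign, none of these called.

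Il6 in SE-cKO against SE-WT was -1.03 with limma voom, -1.09 without the libraries of the other title pattern, -0.0216 without the striatal or thalamic libraries and -0.80 with the Xist covariate, and -0.63 to 2.21 with single libraries left out. In sham-cKO against sham-WT, Il6st was -0.0292 without the striatal or thalamic libraries and -0.00926 with Xist, and with single libraries left out Il6st ran from -0.0292 to 0.0952, Osmr from -0.10 to 0.36 and Lcn2 from -0.34 to 8.39. In the interaction, Lcn2 was -0.00642 with no filter, -2.33 with voom and -0.89 without the striatal or thalamic libraries. Lif was -0.80 with voom, -0.38 without the other title pattern and -0.44 without the striatal or thalamic libraries. Serpina3n was -0.0266 without the other title pattern and -0.0029 with Xist. With single libraries left out these ran from -7.10 to 1.82 (Lcn2), -0.64 to 0.70 (Lif) and -0.17 to 0.24 (Serpina3n), and Il6 from -5.71 to 1.08. The cause was not tested.

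With the replicate block the interaction of Il6 was 0.78 and that of Serpina3n -0.20, and the counts of genes called stayed at 9, 5, 0, 0 and 0. Same-numbered libraries had correlations of -0.074 to 0.249, and not every library correlated best with its own number.

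Low counts limit Il6, Lif, Lcn2 and Steap4, and Osm among the other genes, several of whose sham libraries are at or near 0. Leaving out the striatal or thalamic libraries leaves 1 SE-WT library, assumed to vary like the others. Leaving out the other title pattern was not run for sham mice, who have no such library.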
